A study of Mus musculus with 12 samples.

Results

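The genes described here are 5 regulators of G protein signalling (Rgs1, Rgs2, Rgs10, Rgs16 and Rgs18), the 3 Gadd45 genes (Gadd45a, Gadd45b and Gadd45g) and Fbxo32, 9 of the 54582 gene symbols counted in mouse bone marrow-derived macrophages with and without apoptotic cells. They were selected on the co-culture log2 changes, with earlier results of these data known, because Rgs2, Gadd45g and Fbxo32 were among the largest falls; the rest are their family members. The changes of all 9 in co-culture are therefore given as a description, with no test. The genotype comparisons did not enter the choice and are tested.

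Poly(A) RNA was sequenced from macrophages grown out of mouse tibial marrow (age 6 to 8 weeks), in 12 libraries forming 4 groups of 3. WT and KO are macrophages of wild-type and Kif13b-/- mice without apoptotic cells, KIF13B being a kinesin that carries cargo along microtubules. WT + AC and KO + AC are the same genotypes after 90 minutes with apoptotic Jurkat cells, which derive from a human T cell leukaemia, at 1 macrophage to 5 apoptotic cells. The agent that made the Jurkat cells apoptotic is not given in the sources used here. The labels call the altered genotype both Kif13b-/- and a knock down, and they give a serum content of 10, 10 and 11% in WT and of 12, 13 and 14% in KO, values in doubt because they climb by 1 from library to library. Whether a group's 3 libraries stem from different animals or cultures is not stated, so p-values here reflect the spread between libraries, which may be technical.

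RGS proteins speed up GTP hydrolysis by the alpha subunits of heterotrimeric G proteins and so shorten the signal of G protein-coupled receptors, among them the chemokine receptors that steer leukocytes. GADD45 proteins are small, stress-inducible adaptors that bind the kinase MAP3K4 upstream of p38 and JNK, and also PCNA, the CDK inhibitor p21 and the CDK1-cyclin B1 complex. FBXO32 (atrogin-1) is the F-box subunit that brings substrates to an SCF ubiquitin ligase, best known from muscle wasting, where FOXO factors drive its gene.

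Promoter sequences are shown for Rgs2 and Gadd45g, which fell steeply in co-culture, and for Gadd45b, the paralogue that did not. Gadd45b stood higher there in the main fit, a direction that reversed with offsets for gene length and GC content, as given below. The start regions of genes with unlike courses can thus be read side by side. Each runs 5′ to 3′ on the gene's strand, from 250 bases before to 50 bases after the RefSeq start site (GRCm38.p6). Capitals mark the matches to motifs named after the sequences.
Rgs2 (chr1:144004100-144004399, minus strand): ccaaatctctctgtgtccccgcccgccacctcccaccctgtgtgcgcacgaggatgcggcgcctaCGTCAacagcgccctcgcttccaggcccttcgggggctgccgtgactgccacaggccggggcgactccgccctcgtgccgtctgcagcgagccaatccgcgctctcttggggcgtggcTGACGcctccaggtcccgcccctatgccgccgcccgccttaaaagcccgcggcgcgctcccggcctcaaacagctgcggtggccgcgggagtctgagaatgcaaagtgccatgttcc
Gadd45b (chr10:80929841-80930140, plus strand): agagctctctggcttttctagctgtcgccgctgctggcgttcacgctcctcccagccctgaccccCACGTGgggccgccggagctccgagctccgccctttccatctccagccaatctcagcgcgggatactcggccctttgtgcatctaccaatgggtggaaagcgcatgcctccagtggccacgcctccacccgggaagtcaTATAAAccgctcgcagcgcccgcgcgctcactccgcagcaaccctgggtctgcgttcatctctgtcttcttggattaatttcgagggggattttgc
Gadd45g (chr13:51846425-51846724, plus strand): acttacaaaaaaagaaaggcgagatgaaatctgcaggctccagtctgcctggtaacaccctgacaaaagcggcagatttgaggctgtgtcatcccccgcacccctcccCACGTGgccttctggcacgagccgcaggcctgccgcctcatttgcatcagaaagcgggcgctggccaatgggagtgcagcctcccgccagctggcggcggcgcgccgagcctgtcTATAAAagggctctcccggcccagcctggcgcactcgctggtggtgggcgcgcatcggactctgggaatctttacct

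The RefSeq table held such a window for 6 of the 9 genes: Rgs2, Rgs10, Rgs16, Gadd45a, Gadd45b and Gadd45g. Of the 9 motifs searched on both strands, the Gadd45b and Gadd45g windows share 2. A TATA box (TATAAA) starts 46 bases before the start site in Gadd45b and 27 bases before it in Gadd45g, and 13.6% of the 32851 windows in the table hold one. An E-box (CACGTG) starts 185 bases before the Gadd45b and 142 bases before the Gadd45g start site, against 7.15% of all windows. Rgs2 has the first 5 letters of the cAMP response element (TGACG) 67 bases before its start site and their reverse complement (CGTCA) 185 bases before it, and 20.8% of windows hold this short motif. Gadd45a has a match to the p53 decamer 40 bases before its start site, with 8.36% of windows holding one. None of the 6 windows holds the full cAMP response element TGACGTCA (1.79% of windows, which overlaps the short motif where present), the forkhead core GTAAACA (3.65%), the AP-1 motif TGANTCA (7.81%), a CArG box (1.63%) or an NF-kB site (4.51%). The windows are rich in G and C: 70.0% in Rgs2, 62.0% in Gadd45b and 62.3% in Gadd45g, with 33, 24 and 21 CpG dinucleotides, against medians of 52.7% and 7 over all windows. A match is a string of letters and does not show that a factor binds.

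In GENCODE vM21 (GRCm38), Rgs2 (chr1:143999338-144004161), Rgs1 (chr1:144242296-144249242) and Rgs18 (chr1:144752683-144775435) lie in a row on the minus strand of chromosome 1. The 776.1 kb from Rgs2 to Rgs18 hold 5 protein-coding genes, all of them Rgs genes on that strand, the others being Rgs13 and Rgs21. Rgs13 and Rgs21 had 0 to 7 counts in every library. Rgs16 (chr1:153740349-153745468, plus strand) lies on the same chromosome farther along. Gadd45a (chr6:67035096-67037457, minus), Rgs10 (chr7:128373621-128418758, minus), Gadd45b (chr10:80930073-80932204, plus), Gadd45g (chr13:51846678-51848468, plus) and Fbxo32 (chr15:58175879-58214932, minus) each lie on a chromosome of their own. Genes on the opposite strand share exonic bases with Fbxo32 (186 bases, Gm15943), Gadd45a (337 bases, E230016M11Rik) and Rgs16 (236 bases, Gm28513). The strand setting of the counting is not given in the sources used here, so reads from these partners cannot be told apart from those of the named genes.

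Libraries without apoptotic cells held 18256622 to 18770757 counts over 18335 to 18540 symbols, and those with them 17000976 to 17285594 counts over 31787 to 32801 symbols. The spread between libraries of a group, as the common biological coefficient of variation of edgeR, was 0.117 without and 0.0294 with apoptotic cells. Kif13b, the targeted gene, had 599, 546 and 535 counts in WT and 281, 345 and 424 in KO (log2 difference -0.59, edgeR adjusted p = 0.0087). In co-culture there were 1600, 1561 and 1634 Kif13b counts in WT + AC and 1697, 1697 and 1721 in KO + AC, which put the KO + AC libraries above WT + AC (log2 difference 0.13, edgeR adjusted p = 0.0261), against their label. Kif13b stood higher with apoptotic cells in both genotypes (log2 changes 1.23 in WT and 1.97 in KO). Whether reads from the Jurkat cells enter this count was not tested. KO + AC below means the libraries so labelled. All 10 macrophage markers, among them Adgre1 and Csf1r, were detected in every group, with summed levels of 42523 to 56521 CPM without and 17282 to 20593 with apoptotic cells. CPM are per 1e6 counts of the scaled library throughout. The 16 T cell markers summed to 54.8 to 73.8 CPM without and 90.8 to 109 with apoptotic cells, and Cd3d, Bcl11b and Rag1 were at 0 in WT. Neutrophil markers (20.8 to 27.0 CPM without, 11.7 to 15.4 with), platelet markers (1.41 to 2.58 and 2.74 to 3.73) and B cell markers (2.94 to 3.73 and 3.33 to 4.72) stayed low, with Ly6g at 0 without apoptotic cells and Gp1bb at 0 in all groups.

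**Figure D1:**
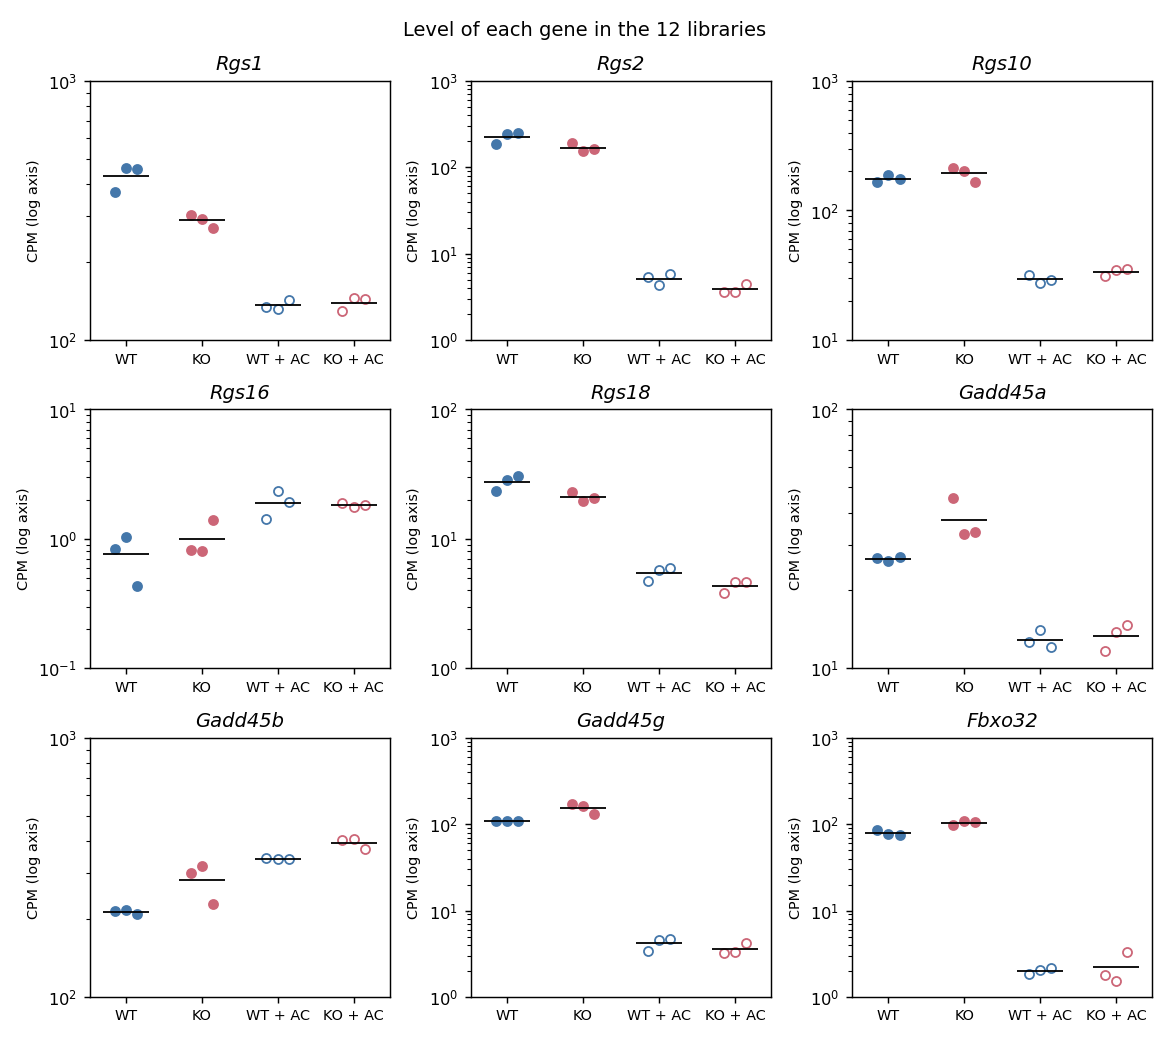
Levels of the 9 genes in each of the 12 libraries, in CPM (counts per 1e6 counts of the scaled library) on a log axis, with a point for each library (filled without, open with apoptotic cells; blue WT, red KO) and a line for the group mean. Rgs2, Gadd45g and Fbxo32 stand far lower with apoptotic cells in both genotypes, whereas Gadd45b and Rgs16 stand higher.

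Without apoptotic cells WT macrophages carried high levels of 3 Rgs genes and 2 Gadd45 genes. Per kilobase of exon, which allows genes to be set against each other, Gadd45b led with 134 ± 2.59 CPM per kb (SD, n = 3), followed by Rgs10 (103 ± 6.60) and Gadd45g (92.3 ± 0.218), and the libraries of neighbours in this order did not overlap. Rgs2 (62.5 ± 9.44) and Rgs1 (61.8 ± 7.26) came next and overlapped each other. Gadd45a (15.02 ± 0.303), Rgs18 (13.5 ± 1.83) and Fbxo32 (11.4 ± 0.761 CPM per kb) formed a lower group in which each overlapped the next. Rgs16, an inducible member of the family, was last with 0.330 ± 0.132 CPM per kb. In KO the levels of Gadd45b (178 ± 30.5 CPM per kb), Gadd45g (133 ± 17.1) and Rgs10 (113 ± 14.4) overlapped one another in that order.

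With apoptotic cells a single gene of the 9 dominated. Gadd45b stood at 215 ± 1.51 CPM per kb in WT + AC and 248 ± 11.5 in KO + AC, and the next gene, Rgs1, at 19.6 ± 0.806 and 20.1 ± 1.28. Fbxo32 was last, with 0.287 ± 0.0230 and 0.316 ± 0.140 CPM per kb. The order of the 9 genes by mean was the same in WT + AC and KO + AC.

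**Figure D2:**
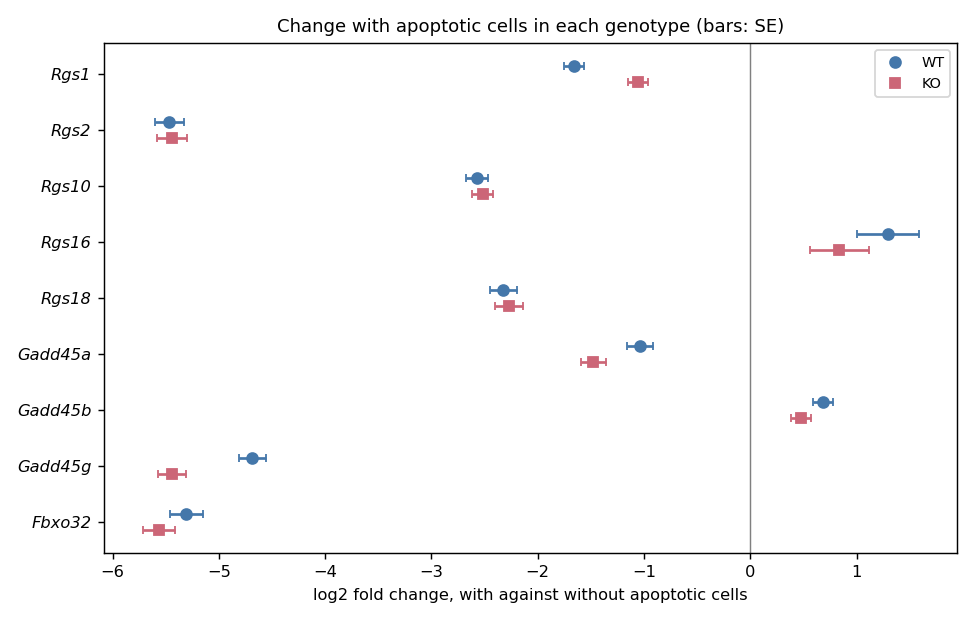
Log2 change with apoptotic cells in WT and in KO macrophages for each of the 9 genes, from the joint fit of the 12 libraries, with bars for the SE (circles WT, squares KO). The 3 genes that led to the choice lie between -4.68 and -5.56, and only Gadd45b and Rgs16 lie above 0.

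The Rgs gene that stood lowest relative to its own level without apoptotic cells was Rgs2, which acts mainly on Gq-coupled signals. Its level was 188, 242 and 251 CPM in WT and 5.33, 4.28 and 5.78 in WT + AC. In KO it was 192, 155 and 162 CPM, and in KO + AC 3.62, 3.59 and 4.47. Every library with apoptotic cells lay far below every library without, 44.2-fold lower by the fit in WT and 43.4-fold in KO (log2 changes -5.46 and -5.44). Of 8194 genes averaging 10 CPM or more, predicted genes included, it had rank 2 by size of fall in WT and rank 5 in KO.

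Gadd45g was also far lower in co-culture. Its level was 108.6, 108.3 and 108.1 CPM in WT, and 3.40, 4.52 and 4.69 in WT + AC. In KO it was 172, 161 and 133 CPM, and in KO + AC 3.20, 3.33 and 4.16. The WT libraries were almost identical to each other, the KO libraries all stood above them, and with apoptotic cells the genotypes overlapped at a few CPM. The log2 changes were -4.68 in WT (25.7-fold lower) and -5.44 in KO (43.5-fold lower), ranks 7 and 4.

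Fbxo32, with 85.7, 77.5 and 75.7 CPM in WT, had 1.83, 2.04 and 2.14 CPM in WT + AC. Its KO libraries had 98.1, 108 and 107 CPM, and its KO + AC libraries 1.78, 1.51 and 3.33. The third KO + AC library, with 64 counts against 34 and 29, stood above the other 5 libraries with apoptotic cells. The log2 changes were -5.31 in WT and -5.56 in KO, 39.6- and 47.2-fold lower, rank 3 in both genotypes.

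Rgs10 and Rgs18 took a middle course. Rgs10, a small RGS protein abundant in microglia and other macrophages, went from 165, 187 and 174 CPM in WT to 31.7, 27.7 and 29.1 in WT + AC, and from 213, 200.5 and 166 in KO to 31.2, 34.94 and 34.99 in KO + AC (log2 changes -2.57 and -2.52). Rgs18, a haematopoietic RGS protein known best from platelets, went from 23.3, 28.8 and 30.4 CPM to 4.72, 5.72 and 5.98 in WT, and from 23.1, 19.7 and 20.6 to 3.83, 4.63 and 4.63 in KO (log2 changes -2.33 and -2.27). Rgs1, which restrains chemokine receptor signals in lymphocytes and macrophages, was lower by less: 371, 460 and 457 CPM in WT against 134, 132 and 142 in WT + AC, and 304, 293 and 271 in KO against 129, 146 and 144 in KO + AC (log2 changes -1.66 and -1.06). The neighbours on chromosome 1 thus differed widely in size of change, from -5.46 for Rgs2 to -1.66 for Rgs1 in WT.

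The 3 Gadd45 genes went different ways. Gadd45a, a p53 target in many cells, had 26.8, 25.9 and 26.8 CPM in WT and 12.6, 14.1 and 12.1 in WT + AC, with 45.3, 33.1 and 33.7 in KO and 11.7, 13.8 and 14.7 in KO + AC (log2 changes -1.04 and -1.48). Gadd45b, the member induced by NF-kB and TGF-beta signals, had 215, 216 and 208 CPM in WT and 344, 340 and 341 in WT + AC, with 301, 320 and 228 in KO and 404, 405 and 373 in KO + AC (log2 changes 0.68 and 0.48). No Gadd45b library without apoptotic cells reached any library with them. This direction reversed in 2 of 15 alternatives in each genotype, those with offsets for gene length and GC content. With these offsets the log2 changes of Gadd45b were -0.15 in WT and -0.054 in KO, a setting that also moved the median of all genes by -0.422 and -0.426.

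Rgs16 was the other gene that stood higher with apoptotic cells, at low counts. Its level was 0.839, 1.04 and 0.434 CPM in WT and 1.42, 2.34 and 1.94 in WT + AC, with 0.814, 0.803 and 1.40 in KO and 1.89, 1.77 and 1.82 in KO + AC. The log2 changes were 1.29 and 0.84, resting on 7 to 23 counts per library without and 28 to 47 with apoptotic cells.

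In all, 7 of the 9 genes were lower and 2 higher with apoptotic cells in both genotypes, with median log2 changes of -2.33 in WT and -2.27 in KO against 0.249 and 0.320 over all genes tested. Across the 16810 genes of the joint fit, 44.0% had a log2 change under 0 in WT and 43.3% in KO, 85.0% were called in WT (48.3% higher, 36.7% lower) and 86.3% in KO (49.6% higher, 36.7% lower), and 0.155% and 0.357% fell at least 16-fold. Because 3 of the 9 were chosen for their falls, nothing is read from these counts. The libraries with and without apoptotic cells come from separate tables, so the effect of co-culture and any difference in how the tables were made cannot be told apart. In bulk RNA, fewer macrophages and less of a transcript per macrophage cannot be told apart either. Libraries with apoptotic cells may also hold reads of human Jurkat RNA, and their part in any level there was not tested. The sum of the macrophage markers stood lower with apoptotic cells through its most abundant members, such as Lyz2 (25121 CPM in WT, 8955.5 in WT + AC), but only 6 of the 10 were lower in WT + AC, and Csf1r (580 and 784 CPM) and Cd14 (157 and 709) were among the 4 that were higher. Of the 16 T cell markers 14 were higher in WT + AC, among them Lck (0.75 and 26.1 CPM) and Zap70 (0.10 and 21.3), while Lat (33.5 and 17.2) and Cd28 (19.4 and 4.91) were lower. Smooth muscle markers summed to 95.4 to 119 CPM in WT and 220 to 299 in KO, against 27.8 to 30.2 in WT + AC and 26.0 to 29.3 in KO + AC. Fibroblast markers summed to 562 to 697 CPM in WT and 769 to 996 in KO, against 371 to 409 in WT + AC and 252 to 272 in KO + AC. Single markers were split: 5 of 8 fibroblast and 3 of 5 smooth muscle markers were lower in WT + AC. Col1a1 (109 and 141 CPM) and Myh11 (0.10 and 2.17) were among those higher. In KO + AC 7 of 8 and 4 of 5 were lower. The part of these markers in the changes was not tested.

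The make-up of the Gadd45 family and of the 5 Rgs genes described here shifted with these changes. The other Rgs genes, such as Rgs19 (43.9 CPM per kb in WT, 16.9 in WT + AC), are left out of the Rgs shares. Gadd45b made up 55.5 ± 0.491% (SD, n = 3) of the summed Gadd45 level per kb in WT and 53.6 ± 2.40% in KO, and 95.2 ± 0.408% and 95.9 ± 0.636% with apoptotic cells. The share of Gadd45g was 38.2 ± 0.340% in WT, 40.0 ± 1.40% in KO, 1.59 ± 0.268% in WT + AC and 1.18 ± 0.223% in KO + AC. The summed Gadd45 level itself was 241 ± 2.61 CPM per kb in WT and 226 ± 0.714 in WT + AC, 332 ± 48.3 in KO and 259 ± 10.5 in KO + AC. Among the 5 Rgs genes, whose sum stood at 241 ± 23.8 CPM per kb in WT and 41.7 ± 1.42 in WT + AC, the share of Rgs2 was 25.9 ± 1.62% and 3.38 ± 0.402%. The share of Rgs1 was 25.6 ± 0.565% in WT and 46.9 ± 1.09% in WT + AC, and that of Rgs10 was 42.7 ± 2.42% and 41.3 ± 2.27%.

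The 3 genes with the steepest falls were also near each other in profile. Likeness was the root mean square difference of log2 CPM over the 12 libraries, each gene centred on its own mean, among 7914 candidates averaging 10 CPM or more, predicted genes left out. By this measure Fbxo32 was the nearest gene to Gadd45g (0.295) and to Rgs2 (0.412), and Gadd45g the nearest to Fbxo32. Rgs2 had rank 5 for Gadd45g (0.428) and rank 3 for Fbxo32. Outside the 9, the 3 nearest genes to Rgs2 were Angptl7 (0.466), Mgp (0.573) and Sh2d1b1 (0.624), those to Gadd45g were Mgp (0.316), Upk3b (0.320) and Rab19 (0.404), and those to Fbxo32 were Upk3b (0.371), Angptl7 (0.499) and Mgp (0.550). All libraries of a condition share a table, so a large fall in co-culture by itself brings profiles near each other.

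**Figure D3:**
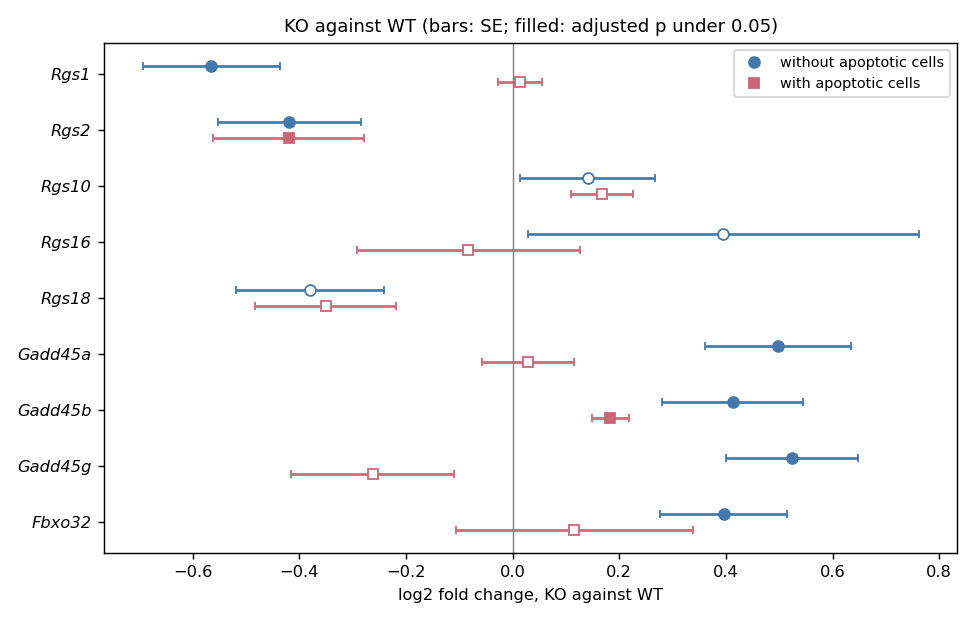
Log2 difference of KO against WT for the 9 genes, without and with apoptotic cells, each from its own fit of 6 libraries, with bars for the SE and filled symbols for an adjusted p under 0.05. Without apoptotic cells the 3 Gadd45 genes and Fbxo32 lie above 0 and Rgs1, Rgs2 and Rgs18 below it.

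KO libraries were compared with WT first without apoptotic cells, where 6 of the 9 genes passed edgeR's quasi-likelihood test at an adjusted p under 0.05, against 16.2% of the 12640 genes tested. The 3 Gadd45 genes and Fbxo32 were higher in KO (7.94% of all genes were called higher), and Rgs1 and Rgs2 were lower (8.24% called lower). Groups that did not overlap were found for 6 genes, namely the 3 Gadd45 genes and Fbxo32 above WT and Rgs1 and Rgs18 below it, against 33.6% of all genes in either direction.

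Gadd45g rose from 108 ± 0.255 CPM (SD, n = 3) in WT to 155 ± 20.1 in KO, a log2 difference of 0.52 (SE 0.12, edgeR adjusted p = 0.00994). Gadd45a rose from 26.5 ± 0.535 to 37.4 ± 6.90 CPM, by 0.498 on the log2 scale (SE 0.14, edgeR adjusted p = 0.0202). Gadd45b rose from 213 ± 4.12 to 283 ± 48.5 CPM, by 0.41 (SE 0.13, edgeR adjusted p = 0.0376). For each of the 3 genes the WT libraries lay within a few percent of each other, and the spread sat in the KO libraries. KO 3 was the lowest KO library for Gadd45b and Gadd45g.

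Fbxo32 rose from 79.6 ± 5.31 to 105 ± 5.64 CPM, a log2 difference of 0.396 (SE 0.12, edgeR adjusted p = 0.0288). Rgs1 fell from 429 ± 50.4 to 289.8 ± 16.8 CPM (log2 -0.57, SE 0.13, edgeR adjusted p = 0.00802), with every KO library below every WT library. Rgs2 fell from 227 ± 34.2 to 169 ± 19.5 CPM (log2 -0.42, SE 0.13, edgeR adjusted p = 0.0372), and here the first WT library (188 CPM) lay under the first KO library (192 CPM). Rgs18 was 27.5 ± 3.72 CPM in WT and 21.1 ± 1.77 in KO, and its log2 difference of -0.38 (95% interval -0.67 to -0.093) did not pass the test (edgeR adjusted p = 0.0603). For Rgs10 (0.14, interval -0.12 to 0.40) and Rgs16 (0.39, interval -0.36 to 1.15) the adjusted p was 0.447 and 0.466 by edgeR.

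These calls moved with gene length and with single libraries. Across 12530 genes the KO difference fell with exonic length (r = -0.348 across genes, which are not independent replicates), and when genes were split into 8 bins by length the median went from 0.284 in the bin of shortest genes to -0.227 in that of longest. Gadd45b and Gadd45g belong to bin 1, Gadd45a to bin 2, Rgs2 to bin 4 and Rgs1 and Fbxo32 to bin 7. With offsets for length and GC content Fbxo32 alone was called (log2 0.54), while Rgs1 was at -0.027 (edgeR adjusted p = 0.913), Gadd45g at 0.13 (0.353) and Gadd45b at 0.073 (0.611). Gadd45a was at 0.33 (edgeR adjusted p = 0.0593, and 0.0350 with the replicate block added) and Rgs2 at -0.26 (0.0976) with these offsets. Rgs18, below 0 in the main fit, was at 0.073 with them (edgeR adjusted p = 0.662). Scaling by library totals alone, which moved the median of all genes by -0.109, kept the directions of the 6 called genes but ended the calls of Gadd45a (edgeR adjusted p = 0.0842), Gadd45b (0.0978) and Fbxo32 (0.135). Without KO 1 and KO 2 together, a setting chosen after seeing the data in which the lone KO library is assumed to vary like WT, Rgs1 alone was called. The log2 differences there were -0.67 for Rgs1, -0.49 for Rgs2 and 0.43 for Fbxo32, against 0.095 for Gadd45b, 0.29 for Gadd45g and 0.34 for Gadd45a, so the first 3 were as large as with all libraries. Leaving out 1 library at a time gave 1 call without WT 3 or KO 1, 2 without WT 2, 3 without KO 2 and 7 without KO 3. Over all genes 370 of 12870 were called without WT 3, 312 of 12876 without KO 1 and 1001 of 12847 without WT 2. There were 698 of 12868 without KO 2 and 4166 of 12868 without KO 3. The sums of the smooth muscle and fibroblast markers given above were higher in KO than in WT, and the part of these markers in the differences was not tested.

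**Figure D4:**
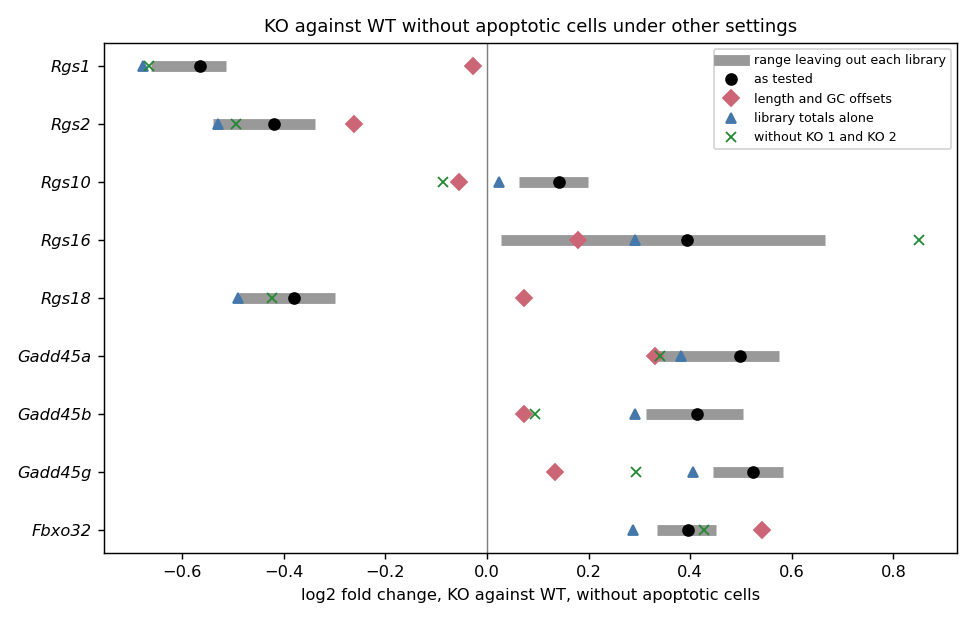
Log2 difference of KO against WT without apoptotic cells as tested (circles), with length and GC offsets (diamonds), with library totals alone (triangles) and without KO 1 and KO 2 (crosses), with a grey band for the range when each library is left out. The length and GC offsets bring Rgs1 to -0.027 and Gadd45b to 0.073, whereas Fbxo32 is at 0.54 there.

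With apoptotic cells 2 of the 9 genes were called between KO + AC and WT + AC, against 11.3% of the 16467 genes tested (6.58% higher and 4.75% lower). Gadd45b was higher, at 394 ± 18.3 CPM in KO + AC against 342 ± 2.40 in WT + AC, a log2 difference of 0.18 (SE 0.03, edgeR adjusted p = 0.000129), and its groups did not overlap. Rgs2 was lower, at 3.90 ± 0.499 against 5.13 ± 0.774 CPM, by -0.42 (SE 0.14, edgeR adjusted p = 0.0432), and its groups overlapped. Rgs18 was the only gene of the 9 whose KO + AC libraries all lay below WT + AC (log2 -0.35, edgeR adjusted p = 0.0806), and 26.4% of all genes had groups that did not overlap in either direction. The direction rests on libraries whose Kif13b count goes against their label.

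For the other genes the interval of the KO + AC difference was as follows. Rgs1 was at 0.014 (95% interval -0.069 to 0.097), Gadd45a at 0.029 (-0.14 to 0.20) and Rgs10 at 0.17 (0.050 to 0.28, edgeR adjusted p = 0.0538). Intervals were wider for Gadd45g (-0.26, from -0.57 to 0.043), Fbxo32 (0.12, from -0.34 to 0.57) and Rgs16 (-0.083, from -0.50 to 0.34), which had low counts. The Rgs2 difference ran from -0.54 to -0.32 over the alternatives, and its call was lost with DESeq2 (log2 -0.41, adjusted p = 0.254), without WT + AC 1 (edgeR adjusted p = 0.127), WT + AC 3 (0.227), KO + AC 1 (0.194) or KO + AC 2 (0.187), and in the joint fit of 12 libraries (0.429). Gadd45b lost its call in the joint fit (log2 0.21, edgeR adjusted p = 0.501), which gives these libraries the wider spread of those without apoptotic cells.

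Whether the genotype difference itself changed with apoptotic cells was tested as an interaction over the 12 libraries, and 2 of the 9 genes were called, against 12.7% of the 16810 genes tested (7.55% upward and 5.13% downward). For Rgs1 the interaction was 0.60 on the log2 scale (SE 0.13, edgeR adjusted p = 0.00289): KO stood below WT without apoptotic cells (289.8 against 429 CPM) and beside it with them (139 ± 8.91 against 136 ± 5.60). For Gadd45g it was -0.76 (SE 0.19, edgeR adjusted p = 0.00942), with KO above WT without apoptotic cells and at 3.56 ± 0.519 against 4.20 ± 0.699 CPM with them. Gadd45a had an interaction of -0.44 that was not called (edgeR adjusted p = 0.0801), as did Gadd45b (-0.20, adjusted p = 0.359) and Fbxo32 (-0.25, adjusted p = 0.555). For Rgs2 it was 0.024 (95% interval -0.40 to 0.45), and its genotype difference was -0.42 in both conditions. With length and GC offsets neither call held (Rgs1 0.17, edgeR adjusted p = 0.481, and Gadd45g -0.42, adjusted p = 0.112).

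**Figure D5:**
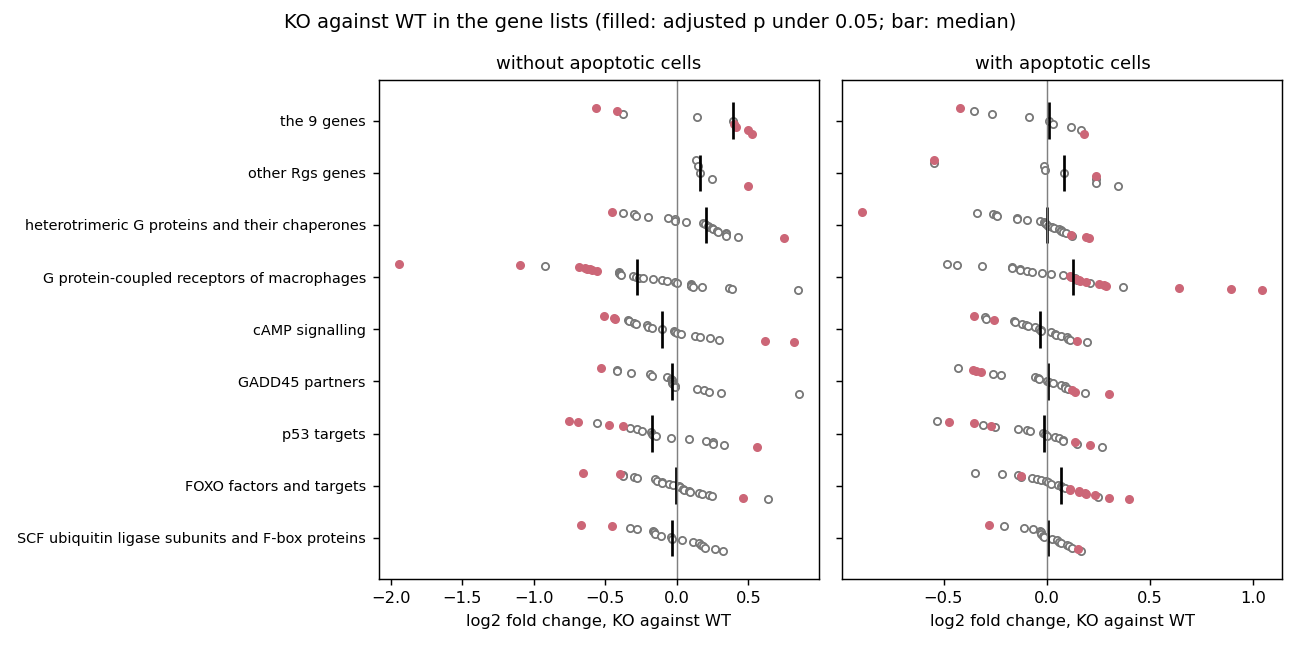
Log2 difference of KO against WT for the genes of each pathway list, without (left) and with (right) apoptotic cells. Each point is a gene, filled at an adjusted p under 0.05, and black bars are list medians. Receptor genes lie mostly below 0 without apoptotic cells (median -0.28) and above 0 with them (median 0.13).

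The genes that act with the 9 were followed through lists put together with earlier results of these data known, and each list is described by its counts beside the shares of all genes given above. Of 16 other Rgs genes, 5 passed the filter on low counts without and 9 with apoptotic cells. Rgs3 was higher in KO (22.6 ± 2.64 against 16.0 ± 1.44 CPM in WT, log2 0.50, edgeR adjusted p = 0.0227) and in KO + AC (log2 0.24, adjusted p = 0.0180), and Rgs12 was lower in KO + AC (log2 -0.55, adjusted p = 0.00513). In co-culture 10 entered the joint fit, but Rgs6, Rgs8, Rgs9, Rgs17 and Rgs20, with 0 to 5 counts in every library without apoptotic cells, passed its filter only through the libraries where they are higher, so no count is read from this list. In the other lists, Gnao1, Gnaz, Gpr84, Adcy4, Mapk13, Tet1, Perp, Foxo6 and Depp1 did not pass the filter without apoptotic cells. Each is among the rises of its list in WT below, so the co-culture counts of those lists are a description only. Among the other Rgs genes, Rgs19 (log2 -1.37 in WT and -1.51 in KO), a Gi regulator, and Rgs14 (-1.15 and -1.20) were the 2 called lower in the main fit. With length and GC offsets 4 were called lower in WT and 3 in KO.

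Among 26 heterotrimeric G protein subunits and their chaperones, the partners of RGS proteins, 1 of 22 tested was higher and 1 lower in KO. These were the gamma subunit gene Gng11 (35.2 ± 5.95 CPM in KO against 20.9 ± 0.35 in WT, log2 0.75, edgeR adjusted p = 0.00214) and the inhibitory alpha subunit gene Gnai3 (log2 -0.45, adjusted p = 0.0259). With length and GC offsets 2 of 22 were higher in KO and 0 lower. With apoptotic cells 3 of 24 were higher and 1 lower, led by Gna13 (log2 0.20, edgeR adjusted p = 7.48e-06). In co-culture 7 of 24 rose and 14 fell in WT, with Gna13 at 1.88 and Gnaq, the alpha subunit of the Gq class, at 1.17, and Gng11 at -2.67.

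The 31 G protein-coupled receptors of macrophages, whose signals RGS proteins shorten, held the most genotype calls of these lists. Without apoptotic cells 8 of 30 tested were lower in KO and 0 higher (list median -0.28, all genes 0.024), and with them 12 of 28 were higher in KO + AC and 0 lower (0.13, all genes -0.020). The formyl peptide receptor gene Fpr1 stood at 10.1 ± 1.14 CPM in WT and 2.62 ± 0.531 in KO (log2 -1.95, edgeR adjusted p = 7.77e-07), and at 44.2 ± 1.45 in WT + AC and 83.5 ± 9.06 in KO + AC (log2 0.89, adjusted p = 1.28e-08). The sphingosine phosphate receptor gene S1pr1 was lower in KO (log2 -0.64, edgeR adjusted p = 0.00345). The interaction was called for 10 of 31, all upward, with Fpr1 at 2.86 and Fpr2 at 2.17. With length and GC offsets the counts were 1 higher and 6 lower without apoptotic cells, 13 and 0 with them, and 10 and 1 for the interaction. Without KO 1 and KO 2 they were 0 and 2 without apoptotic cells and 10 and 1 for the interaction, without KO 3 they were 0 and 12 without apoptotic cells, and in the joint fit 2 and 0 with apoptotic cells.

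In co-culture 21 of the 31 receptor genes fell and 9 rose in WT, and 13 fell and 11 rose in KO. The purine receptor gene Adora2a rose by 3.78 in WT and 4.17 in KO on the log2 scale. Gpr84, a receptor for medium-chain fatty acids, had 4 to 11 counts per library without and 440 to 589 with apoptotic cells, and it passed the filter only through the latter. Lpar6, a lysophosphatidic acid receptor gene, fell by 3.69 and 3.56. In the cAMP list of 23 genes, 14 of 22 tested rose and 5 fell in each genotype, but with length and GC offsets 7 rose and 8 fell in WT and 8 rose and 9 fell in KO. The largest rise was that of the phosphodiesterase gene Pde4b (log2 5.42 in WT and 5.93 in KO), while Crem, a cAMP-responsive repressor and activator, fell by 1.82 and 1.70. Of the same list 2 of 21 were higher and 3 lower in KO, with the adenylyl cyclase gene Adcy3 at 0.82 (edgeR adjusted p = 0.00409), and 1 was higher and 2 lower of 22 in KO + AC.

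Of 21 partners of GADD45, kinases of the p38 and JNK routes, cell cycle genes and DNA demethylation enzymes, 1 of 19 was called in KO. That was Tet2, lower in KO (log2 -0.53, edgeR adjusted p = 0.0386) and higher in KO + AC (0.30, adjusted p = 2.33e-05), where 3 of 20 were higher and 3 lower. In co-culture 10 of 21 rose and 4 fell in WT, and 13 rose and 7 fell in KO (with length and GC offsets 9 and 8 in WT, 8 and 8 in KO). Pcna, which GADD45 proteins bind, fell from 709.6 ± 53.8 to 194 ± 11.8 CPM in WT (log2 -1.87). Among 20 p53 targets, 1 of 19 was higher and 4 lower in KO, and 2 of 20 were higher and 3 lower in KO + AC. In co-culture 9 rose and 8 fell in WT (6 and 10 with length and GC offsets). Sesn1, a stress-inducible regulator of mTORC1, fell by 3.61 in WT and 3.53 in KO on the log2 scale, and Phlda3, an AKT inhibitor, by 2.75 and 3.30. The list of p53 targets shares Cdkn1a with the partners of GADD45.

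Among 29 FOXO factors and targets, the group that Fbxo32 belongs to in muscle, 1 of 24 was higher and 2 lower in KO, and 9 of 25 were higher and 1 lower in KO + AC. The transcription factor gene Klf2 (log2 0.40, edgeR adjusted p = 1.26e-07) and the superoxide dismutase gene Sod2 (0.24, adjusted p = 1.68e-06) were among those higher in KO + AC. In the joint fit 1 of 26 was called there. In co-culture 11 of 26 rose and 14 fell in WT, with Klf2 at 2.71 and Tsc22d3, a glucocorticoid-induced gene, at -2.44. Of 19 matched SCF subunits and other F-box genes, 2 of 18 tested were lower in KO, namely the F-box genes Fbxo11 (log2 -0.67, edgeR adjusted p = 0.0117) and Fbxl5 (-0.46, adjusted p = 0.0200). With length and GC offsets neither was called lower, and 2 of 18 were higher and 0 lower in KO. The counts higher and lower with these offsets were 1 and 0 for cAMP, 1 and 2 for GADD45 partners, 0 and 2 for p53 targets and 2 and 2 for FOXO. With apoptotic cells 1 of 18 was higher, Fbxo11, and 1 lower, Btrc. In co-culture 6 rose and 9 fell in WT (5 and 12 with length and GC offsets). Fbxo11 rose by 1.83 and 2.68 in WT and KO, while the core subunit gene Rbx1 fell by 1.69 and 1.88 and the gene of NEDD8, which activates the cullin, fell by 1.49 and 1.82. The 7 lists other than the receptors together had 19 calls among 127 tested genes without apoptotic cells, against 16.2% of all genes. Without KO 3 they had 48 of 128, against 4166 of 12868 over all genes. With apoptotic cells 31 of 137 were called, against 11.3% of all genes. In the joint fit 1 of 140 was called (23 at an unadjusted p under 0.05), against 157 of 16810 over all genes.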

How the data were processed

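RNA sequencing measured poly(A) RNA of 12 libraries in 4 groups of 3. The authors deposited raw read counts per gene symbol, with 1 table for the libraries without and 1 for those with apoptotic cells. The submitters' processing notes name fastp, HISAT2 2.0.5, DESeq2 1.20.0 and the build mm10. How reads were counted, with which annotation and strand setting, is not given in the sources used here. No per-sample column was unused (0).

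Counts were analysed in R 4.3.3 with edgeR 4.0.16 (robust quasi-likelihood test, two-sided, filterByExpr by group, TMM), after a check on simulated data. P-values were adjusted by Benjamini-Hochberg over all genes tested, and an adjusted p under 0.05 was a call. The genotype comparisons used the 6 libraries of their table. Interaction, co-culture and all CPM printed come from 1 model of all 12 libraries and the 54582 symbols in both tables. CPM is counts per 1e6 counts of the scaled library. Alternatives included DESeq2 1.42.0, other scalings, no filter, a replicate block, length and GC offsets and leaving out libraries.

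The members and the lists were chosen with earlier results of these data known. Named genes are the 9 members, Kif13b, and from each list up to 3 called genes with the smallest p in a genotype comparison or the interaction, and up to 2 each way with the largest co-culture change called in both genotypes, with a mean of at least 2 CPM; from these the text prints some, and 1 of them is not reported here. For likeness, the 3 nearest genes were taken. Lengths and GC come from GENCODE vM21.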

Additional observations from a re-analysis of the deposited data

Results flagged for a closer look

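For Rgs1 and Gadd45g the difference between the genotypes was not the same with and without apoptotic cells, by the test of the interaction in edgeR over the 12 libraries (2 of the 9 genes, against 12.7% of all genes tested). Rgs1 had a log2 interaction of 0.60 (edgeR adjusted p = 0.00289), and its log2 change in co-culture was -1.66 in WT and -1.06 in KO. Gadd45g had one of -0.76 (edgeR adjusted p = 0.00942), and its log2 change was -4.68 in WT and -5.44 in KO. Over the alternatives the Rgs1 value ran from 0.17 to 0.69 and the Gadd45g value from -0.89 to -0.42, and each lost its call in 3 of 22.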

How the results depend on the processing

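Of the 9 genes, 6 were called between KO and WT without apoptotic cells. This became 0 with at least a 2-fold change, 1 with length and GC offsets, 2 with the replicate block and these offsets together, and 1 without KO 1 and KO 2 (chosen after seeing the data), and 1 to 7 when each library was left out in turn. With apoptotic cells 2 genes were called, against 1 with DESeq2, 1 with no filter on low counts, 0 with at least a 2-fold change, 0 in the joint fit, and 1 to 3 when each library was left out. For the interaction 2 were called, against 0 with at least a 2-fold change, 0 with length and GC offsets, 0 with the replicate block and these offsets, and 2 to 4 when each library was left out. In co-culture 7 of 9 were lower, and 7 to 8 under the alternatives. Gadd45b reversed there: -0.15 in WT and -0.054 in KO with length and GC offsets, and -0.149 and -0.053 with the replicate block and these offsets. The cause was not tested. Over all genes, calls without apoptotic cells went from 2045 to 920 with length and GC offsets, 95 without KO 1 and KO 2, 3999 in the joint fit and 160 with a 2-fold change, and from 312 to 4166 when each library was left out. With apoptotic cells they went from 1866 to 157 in the joint fit, 1137 with DESeq2 and 28 with a 2-fold change, and from 1192 to 2142 when each library was left out. For the interaction they went from 2132 to 330 with a 2-fold change and 1043 without KO 1 and KO 2, and from 1129 to 4330 when each library was left out. Library totals alone moved the median of all genes by -0.109 without apoptotic cells and by 0.407 and 0.441 in co-culture in WT and KO. The labels do not tie replicate numbers. Same-numbered WT and KO libraries deviated with correlations of -0.204, -0.00143 and 0.112 without and 0.0207, -0.0687 and -0.0805 with apoptotic cells. Unlike-numbered libraries ranged from -0.251 to 0.236 without and from -0.0407 to 0.107 with them. No sign of pairing by number was seen, but 3 libraries per group cannot exclude it. With the replicate block 7 members were called without apoptotic cells (2496 of all genes), 2 with them (1649) and 2 for the interaction (2174). At 7 to 23 counts without apoptotic cells, depth limits Rgs16 most.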
